A study of Homo sapiens with 12 samples.

Results

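Untreated cells of the human glioblastoma lines U87 and U373 were compared, to describe how the lines differed before any arginine was removed. The 3 U87 libraries given phosphate-buffered saline (PBS) were set against the 3 U373 libraries given PBS. Every gene that reached a value of 10 in 3 or more of these 6 libraries was taken, which made 13231 of the 19824 genes in the deposited table. The label on treatment protocol names PBS for all samples, so the groups were taken from the titles and the treatment label, which separate BCT-100 from PBS. Both are established lines sold as glioblastoma models and labelled wild-type. Cells of both lines grew in high-glucose DMEM with fetal bovine serum, received PBS as vehicle for 72 h, and gave RNA by Trizol extraction. The series also holds 3 libraries of each line given BCT-100, a pegylated arginase that removes arginine from the medium, at 1 U/ml for 72 h. Those 6 libraries were used here for a single comparison, given last. Whether the 3 replicates of a line came from separate cultures is not labelled, so p-values measure only how much these libraries vary, and that variation may be technical. Each group is 1 cell line, so a difference describes these cultures and not a class of tumours.

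Arginine can be imported, mainly through cationic amino acid transporters, or rebuilt from citrulline by argininosuccinate synthase (ASS1) and argininosuccinate lyase (ASL). Cells that make little ASS1 depend on arginine from outside, which is the weakness that arginase drugs address. Glioblastoma is an astrocytic tumour, and its lines vary in how much they keep of the programmes of astrocytes and neural stem cells. Long-cultured lines can instead make the matrix, proteases and cytokines of mesenchymal cells.

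The values are the authors' scaled read counts, in which 1 read is worth close to 1 unit, and they are not corrected for gene length. The 6 libraries held between 18.89 M and 24.94 M reads, as recovered from the step size of the values. Replicates of a line differed by more than counting noise in every pairing, so none was a repeat deposit of another. U373 replicate 1 stood apart in 1 respect. Of 29 interferon-induced genes tested, 13 were at least 2-fold above both other U373 libraries in it, and it was the highest U373 library for 24. No other PBS library had any of these genes at least 2-fold above its partners. Its effect on the interferon genes named is given beside them.

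The lines differed at 11197 of the 13231 genes, or 84.6%, at an adjusted p under 0.05 (limma with Benjamini-Hochberg adjustment). Of all tested genes, 5794 (43.8%) were higher in U87 and 5403 (40.8%) were lower. A call at this threshold therefore says little about any one gene, and size was used beside it. In U87, 2318 genes (17.5%) were called and at least 2-fold higher, and 2313 genes (17.5%) were called and at least 2-fold lower. The median difference over all tested genes was 0.027 on the log2 scale. Differences of at least 4-fold were called for 1205 genes that were higher and 1232 that were lower. A gene that passed the filter through 1 line alone had to differ, and this was the case for 656 genes through U87 and 661 through U373. Counts over gene groups below are descriptions, to be read against these shares. A group's median depends on which low genes enter it, so where another filter moved it by more than 1.5 times that median is given too, either over every gene with any value above 0 or over genes with at least 50 in 3 libraries. Several medians close to 0 moved by such a factor with the scaling or with 1 library left out, and no direction is read from them.

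**Figure D1:**
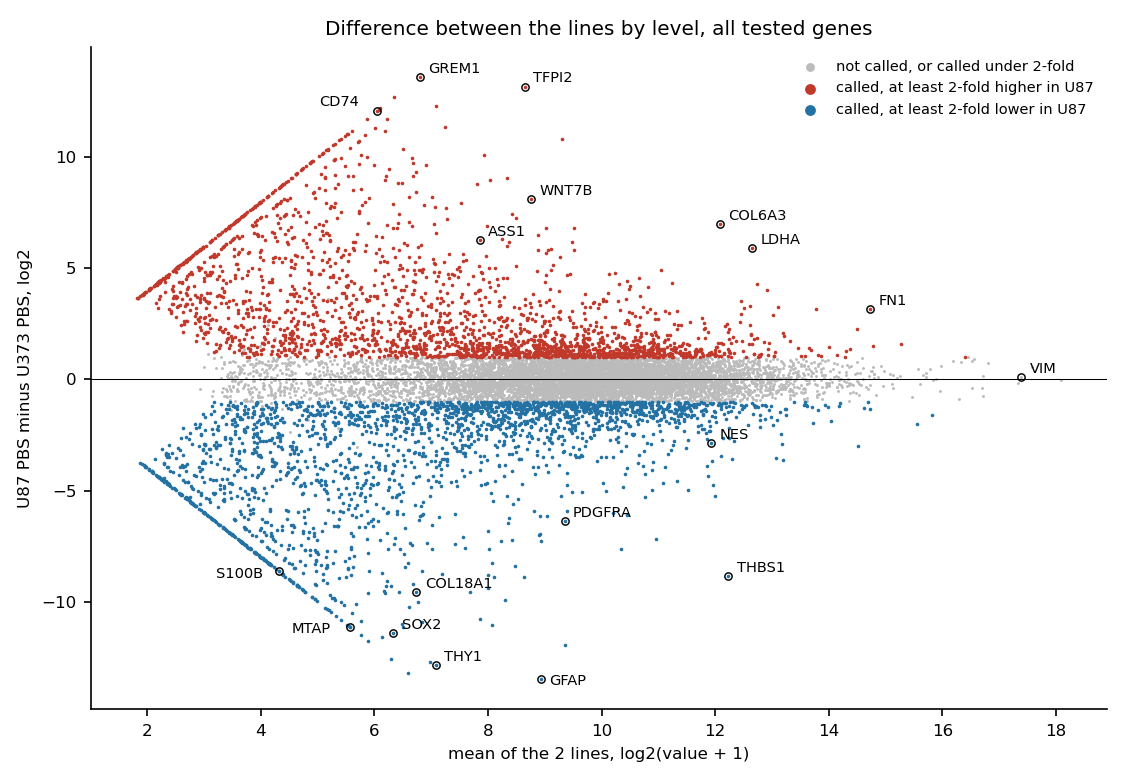
Difference between U87 PBS and U373 PBS (y axis, log2) against the mean level of the 2 lines (x axis, log2(value + 1)) for the 13231 tested genes, 1 point each, with called genes at least 2-fold apart in red (higher in U87) and blue (lower in U87). GREM1 and TFPI2 lie at the top, GFAP and THY1 at the bottom, and VIM sits near 0 at the highest levels; the straight edges are genes at 0 in 1 line.

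Among well-measured genes, the largest differences were close to all-or-none. The 12 genes furthest above U373 were GREM1, TFPI2, TMPRSS15, EREG, XYLT1, SERPINB2, CD74, CSF3, CACNA1A, KIAA1644, MYL9 and HLA-DRA. GREM1, a secreted antagonist of bone morphogenetic proteins, had 12487, 12227 and 12693 in the 3 U87 libraries, against 0 in all 3 U373 libraries. It was at least 12637-fold higher in U87, taking 3 reads over the U373 group as the floor. TFPI2, a secreted protease inhibitor, had 35634, 38169 and 35729 in U87, against 4.6, 4.68 and 0.909 in U373. For both genes the U87 libraries lay far above every U373 library. The 12 genes furthest below U373 were GFAP, GFRA1, THY1, PXDN, EPB41L3, CRYAB, PLEKHG1, CNR1, GPC4, SOX2, NLGN4X and MTAP. GFRA1, the GDNF co-receptor, was at 0 in U87 and averaged 9333 ± 89.6 (SD, n = 3) in U373, at least 9527-fold lower in U87. CRYAB, a small heat shock protein abundant in glia, averaged 9.9 ± 5.67 in U87 and 39873 ± 2733 in U373 (SD, n = 3 each).

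The labelled cell type was checked on 8 markers of glioblastoma and astrocytic cells, and the lines separated over them. GFAP, the intermediate filament of astrocytes, had 3.91, 3.64 and 3.19 in the U87 libraries, against 51317, 51277 and 54054 in the U373 libraries. Its log2 difference was -13.48 ± 0.07 (SE, adjusted p = 2.17e-16). GFAP was thus at a few reads in every U87 library and far higher in every U373 library. S100B, a glial calcium-binding protein, was at 0 in the 3 U87 libraries and averaged 398 ± 37 in U373. SOX2, the transcription factor of neural stem cells, had 2 reads over the U87 group and averaged 3934 ± 93.7 in U373 (SD, n = 3). The ratio of U373 over U87 for SOX2 was 6019, with an exact 95% interval of 1666 to 49705 that covers counting error only. SOX9, a glial transcription factor, averaged 566 ± 4.67 in U87 and 5218 ± 63.9 in U373 (log2 difference -3.20 ± 0.03). NES, the stem cell filament nestin, averaged 1445 ± 79.9 in U87 and 10545 ± 245 in U373 (log2 difference -2.87 ± 0.04). OLIG2, a transcription factor of glial progenitors, ran the other way, with 17.6, 21.8 and 22.3 in U87 and 0 in all 3 U373 libraries. VIM and CD44, which mesenchymal and glial cells share, were close in both lines: VIM averaged 177117 ± 1977 in U87 and 166871 ± 3904 in U373, and CD44 averaged 46943 ± 776 in U87 and 53643 ± 1816 in U373. U87 was thus at or near 0 for GFAP, S100B and SOX2, markers of the labelled type, and U373 was at 0 for OLIG2.

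The wider astrocyte and neural stem cell lists were lower in U87 for most members measured. Of 14 astrocyte genes tested, 9 were lower in U87 and 5 higher, 8 and 4 of them at least 2-fold. Their median was -1.98 on the log2 scale, -0.75 with every gene that had any value above 0 and -1.45 with at least 50 in 3 libraries. FABP7, the brain fatty acid carrier of radial glia, averaged 1.99 ± 1.02 in U87 and 1806 ± 70.5 in U373. The glutamate transporter SLC1A3 averaged 819 ± 38.1 in U87 and 2232 ± 60.7 in U373. Higher in U87 were CLU, the chaperone clusterin, at 6212 ± 135 against 339 ± 19.6 in U373, and GJA1, the gap junction protein connexin 43, at 3275 ± 68 against 835 ± 11.7 in U373. Of 19 neural stem and progenitor genes tested, 17 were lower in U87, 16 of them at least 2-fold, and OLIG2 alone was higher, with a median of -3.32. POU3F2, a neural transcription factor, had 4.89, 3.64 and 10.6 in U87, against 2870, 2979 and 2914 in U373. ID3, an inhibitor of differentiation factors, averaged 981 ± 14.8 in U87 and 8292 ± 126 in U373. Among them 6 astrocyte genes and 5 stem cell genes had passed the filter through 1 line alone.

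Markers of other cell types did not form a complete set in either line. Of 14 leukocyte and microglial markers, AIF1, CD3E, P2RY12 and TYROBP were at 0 in all 6 libraries. Their summed level ran from 6274 to 6456 in U87 and from 444 to 499 in U373, and CD68, a lysosomal protein, made up most of it at 6032 in U87 and 442 in U373. Of 10 endothelial and erythroid markers, CLDN5 and HBB were among those at 0 throughout, and the sum ran from 168 to 207 in U87 and from 76.4 to 108 in U373. Of 10 epithelial markers, KRT5 and KRT14 were at 0 throughout, with sums of 110 to 156 in U87 and 331 to 413 in U373. The 10 fibroblast and mural markers summed to between 6783 and 7028 in U87 and between 17318 and 17825 in U373, where THY1 led. By number they ran the other way. Of the 8 tested, 5 were higher in U87 and 3 lower, 5 and 2 of them at least 2-fold, with a median of 1.26. The filter had been passed through 1 line alone by 2 of the 8. THY1, a surface glycoprotein of neurons and fibroblasts, had 0, 0 and 2.13 in U87, against 10741, 10601 and 10762 in U373. Melanocyte markers summed to between 365 and 422 in U87 and between 534 and 554 in U373, with TYR at 0 throughout. Whether other cells had a part in any difference was not tested. In bulk RNA, fewer cells of a kind and less RNA per cell cannot be told apart.

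Oligodendrocyte lineage and neuronal genes were mixed. Of 6 oligodendrocyte genes tested, 4 were lower in U87 and 2 higher, each at least 2-fold, with a median of -3.16 that became -0.89 with every gene that had any value above 0. PDGFRA, a receptor of glial progenitors that is often altered in glioblastoma, had 63.7, 64.6 and 86.1 in U87, against 5634, 5989 and 6022 in U373. CSPG4, the NG2 proteoglycan that usually accompanies it in progenitors, had 2818, 2789 and 2517 in U87, against 15.7, 29.3 and 22.7 in U373. These receptors therefore marked opposite lines without overlap. Of 13 neuronal genes tested, 7 were higher and 4 lower in U87, all at least 2-fold, with a median of 1.14 that became 0.15 with every gene that had any value above 0. Among the 13, 3 had passed the filter through 1 line alone. SNAP25, of the synaptic fusion machinery, averaged 852 ± 12.9 in U87 and 31.2 ± 3.07 in U373, while the adhesion molecule NCAM1 averaged 230 ± 8.17 in U87 and 1743 ± 69.7 in U373. A list of 30 mesenchymal glioblastoma regulators and markers had a median of 0.06, with 15 higher and 14 lower, 8 and 8 of them at least 2-fold. The members named next, CHI3L1 and PDPN, are both among the higher ones and do not stand for the list. CHI3L1, a secreted glycoprotein used as a mesenchymal marker, had 661, 759 and 571 in U87, against 49.7, 48.0 and 51.8 in U373. PDPN, the surface mucin podoplanin, averaged 950 ± 31.3 in U87 and had 1 read over the U373 group.

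**Figure D2:**
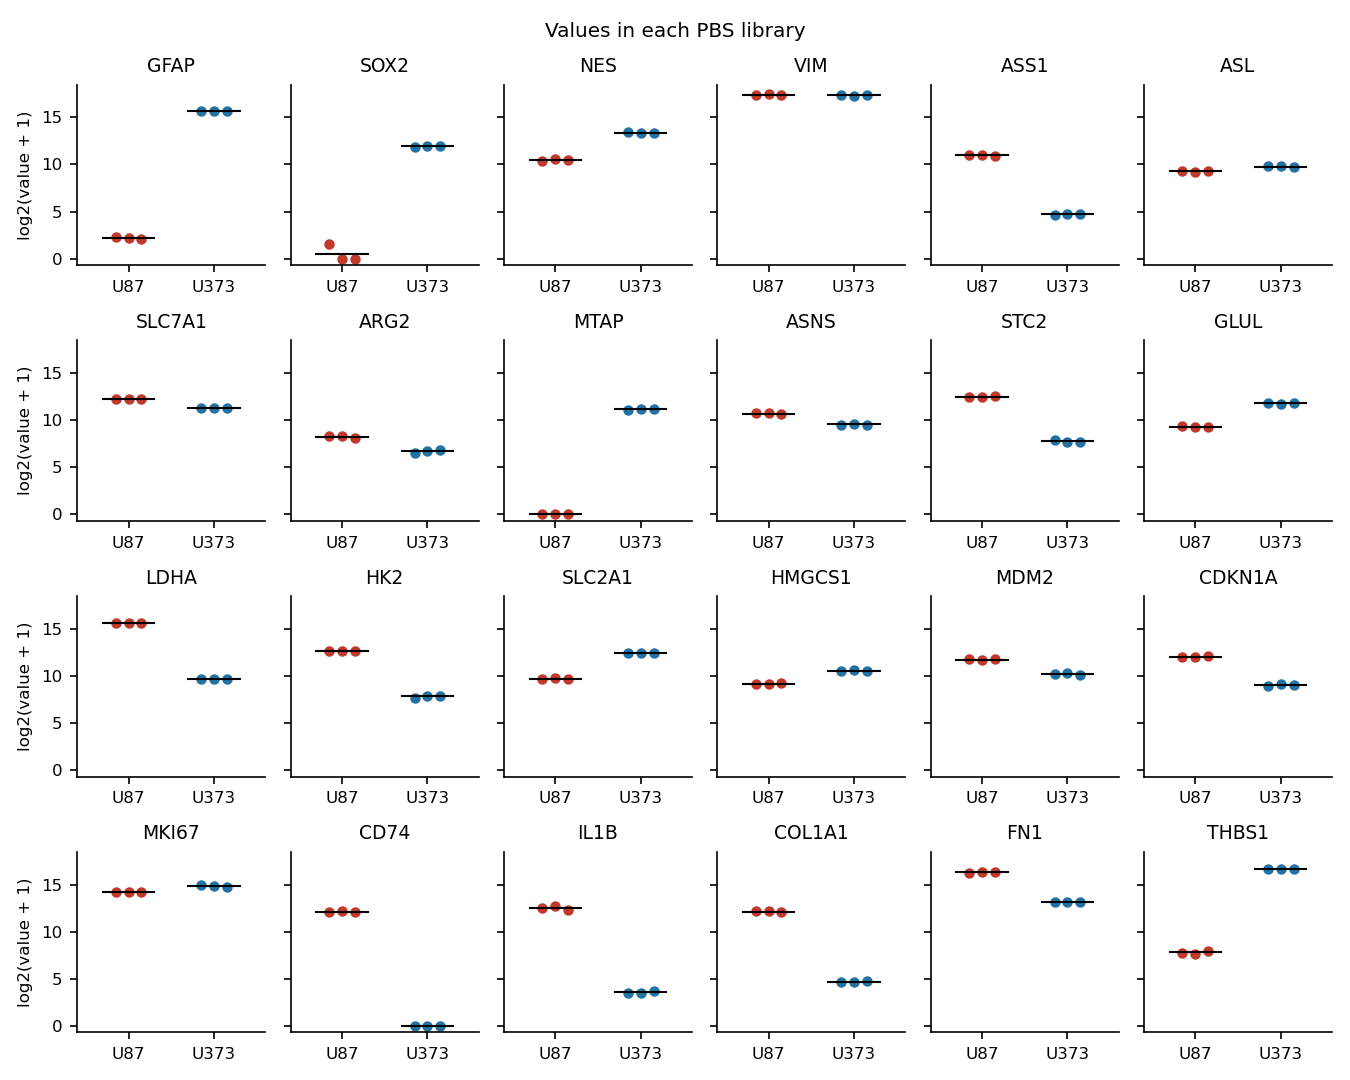
Values of 24 genes in each PBS library (y axis, log2(value + 1), shared by all panels), with U87 in red on the left, U373 in blue on the right, and a bar at the mean of each 3 libraries. The replicates of a line lie close together, GFAP, SOX2 and MTAP sit near 0 in U87, and CD74 sits at 0 in U373.

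Arginine synthesis differed most at its rate-setting enzyme. ASS1 had 2070, 2048 and 1959 in the U87 libraries, against 23.9, 25.7 and 26.4 in the U373 libraries. The lowest U87 library lay far above the highest U373 library, and the log2 difference was 6.27 ± 0.09 (SE, adjusted p = 1.3e-13). ASL, the next enzyme, had 647, 589 and 612 in U87, against 888, 902 and 841 in U373, a log2 difference of -0.51 ± 0.05 (adjusted p = 4.03e-06). U87 was thus the higher line for the first step and the lower one for the second. ARG2, the mitochondrial arginase, averaged 298 ± 28.4 in U87 and 105 ± 13.3 in U373. The arginine importer SLC7A1 averaged 4840 ± 95.8 in U87 and 2519 ± 9.84 in U373 (log2 difference 0.94 ± 0.03). OTC, which makes citrulline in the liver, was at 0 in all 6 libraries, as was ARG1.

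Of 15 genes of arginine metabolism and the urea cycle tested, 8 were higher in U87 and 4 lower, 6 and 3 of them at least 2-fold, with a median of 0.34. Among the 15, 3 had passed the filter through 1 line alone. NAGS, which makes the activator of the urea cycle, had 260, 215 and 209 in U87, against 24.9, 43.3 and 31.8 in U373. DDAH1, which clears methylated arginines that inhibit nitric oxide synthases, averaged 244 ± 3.13 in U87 and 2643 ± 34.7 in U373. GATM, the first enzyme of creatine synthesis and a consumer of arginine, averaged 17.0 ± 2.87 in U87 and 292 ± 17.7 in U373. CPS1, which feeds ammonia to the cycle, averaged 1015 in U87 and 800 in U373.

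Ornithine, proline and polyamine genes mostly differed less, with exceptions. Of 6 proline and ornithine genes tested, 4 were lower in U87 and 1 higher, with a median of -0.27. OAT, which passes ornithine towards proline, averaged 2954 ± 147 in U87 and 3422 ± 75.4 in U373, and PYCR1, which completes proline, averaged 508 ± 45.4 in U87 and 635 ± 17.5 in U373. ALDH4A1, of proline breakdown, averaged 117 ± 1.33 in U87 and 355 ± 20.1 in U373. The 17 polyamine genes tested split evenly, with 7 higher and 7 lower, 1 and 3 of them at least 2-fold, and a median of 0.08. Among the 17, 2 had passed the filter through 1 line alone. ODC1, the enzyme that commits ornithine to polyamines, averaged 8653 ± 196 in U87 and 6523 ± 137 in U373. SMOX, spermine oxidase, averaged 251 ± 6.04 in U87 and 654 ± 28.3 in U373. The polyamine transporter ATP13A3 averaged 10862 ± 200 in U87 and 3554 ± 44 in U373. Among the exceptions was MTAP, which salvages the methylthioadenosine that polyamine synthesis leaves behind. It was at 0 in every U87 library and had 2166, 2323 and 2331 in U373, so that it was at least 2320-fold lower in U87.

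Amino acid transporters were split almost evenly in number, and single carriers were present in 1 line alone. Of 26 tested, 12 were higher in U87 and 11 lower, 6 and 4 of them at least 2-fold, and 4 had passed the filter through 1 line alone. Their median was 0.09, and it was 0.23 with every gene that had any value above 0 and -0.07 with at least 50 in 3 libraries. SLC6A15, a carrier of branched-chain amino acids and proline, had 1446, 1427 and 1602 in U87 and 0 in all 3 U373 libraries. The glutamine carrier SLC38A3 was its mirror image, at 0 in U87 and with 406, 414 and 371 in U373. SLC1A1, a glutamate transporter, averaged 1078 ± 6.39 in U87 and 159 ± 3.69 in U373. The cystine importer SLC7A11 averaged 2185 ± 283 in U87 and 4116 ± 121 in U373.

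Serine, folate and amino acid synthesis genes were also divided, with 16 of 29 tested higher in U87, 11 lower and a median of 0.27. At least 2-fold lower in U87 were 6 genes. GLUL, glutamine synthetase, had 662, 611 and 604 in U87, against 3661, 3492 and 3578 in U373. PHGDH, the first enzyme of serine synthesis, averaged 2095 ± 39.1 in U87 and 5654 ± 281 in U373 (log2 difference -1.43 ± 0.04). SHMT1, the cytosolic serine hydroxymethyltransferase, averaged 631 ± 30 in U87 and 3478 ± 52.0 in U373, and TYMS, thymidylate synthase, averaged 3011 ± 52.8 in U87 and 12480 ± 93.5 in U373. At least 2-fold higher in U87 were ASNS, CTH and ALDH1L2. ASNS, asparagine synthetase, had 1681, 1716 and 1598 in U87, against 731, 796 and 736 in U373 (log2 difference 1.14 ± 0.05, adjusted p = 1.14e-09). CTH, which makes cysteine, averaged 247 ± 27.3 in U87 and 57.9 ± 10.9 in U373.

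ASNS is also a target of ATF4, the regulator through which the integrated stress response acts when amino acids run short. Genes of that response were mostly higher in U87 without any depletion. Of 24 tested, 15 were higher and all 15 by at least 2-fold, against 17.5% of all genes, while 6 were lower and 3 had no call. Their median was 1.15. None of the 24 had passed the filter through 1 line alone. ATF4 had 4001, 3966 and 3973 in U87, against 1623, 1769 and 1782 in U373, and DDIT3, the factor CHOP, had 777, 789 and 735 in U87, against 298, 315 and 287 in U373. The U87 libraries stood above all U373 libraries for both. STC2, a secreted glycoprotein induced by this response, averaged 5759 ± 193 in U87 and 216 ± 15.7 in U373, and the cytokine GDF15 averaged 880 ± 65.6 in U87 and 44.5 ± 8.36 in U373. SESN2, a leucine-sensing inhibitor of mTORC1, averaged 1211 ± 74.4 in U87 and 149 ± 4.36 in U373. GDF15 and SESN2 are p53 targets as well, and both appear again in that list. Lower in U87 were VLDLR, a lipoprotein receptor, at 954 ± 53.4 against 6444 ± 178 in U373, and TRIB3, a feedback inhibitor of ATF4, at 228 against 363 in U373.

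Glycolysis differed at named isozymes more than across the pathway. Of 33 genes tested, 19 were higher in U87 and 11 lower, with a median of 0.62, and 12 and 6 were at least 2-fold apart. LDHA, the lactate dehydrogenase subunit that favours lactate formation, had 49989, 50248 and 49972 in U87, against 813, 826 and 830 in U373. Its log2 difference was 5.93 ± 0.02 (SE, adjusted p = 1.77e-17), and every U373 library lay far below every U87 library. LDHB, the partner subunit, averaged 17704 ± 297 in U87 and 8583 ± 119 in U373. HK2, the inducible hexokinase, had 6335, 6353 and 6359 in U87, against 207, 241 and 237 in U373. SLC16A7, a monocarboxylate transporter, averaged 1114 ± 59.9 in U87 and 61.3 ± 3.61 in U373. The glucose carriers ran in opposite directions: SLC2A3 averaged 1315 ± 17.9 in U87 and 184 ± 39.7 in U373, whereas SLC2A1 averaged 823 ± 33.6 in U87 and 5504 ± 124 in U373. PKM, pyruvate kinase of the last step, averaged 93154 ± 822 in U87 and 121395 ± 3157 in U373.

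Downstream and side branches of glucose use showed other patterns. Of 33 genes of pyruvate entry and the TCA cycle, 16 were higher and 13 lower with a median of 0.03 (0.24 with at least 50 in 3 libraries), and DLST, a subunit of the oxoglutarate dehydrogenase complex, was the single one called at least 2-fold higher in U87, at 3605 ± 56.4 against 1611 ± 54.9 in U373. DLAT, of the pyruvate dehydrogenase complex, averaged 575 ± 47.3 in U87 and 1644 ± 30.1 in U373. In the pentose phosphate pathway, 6 of 11 genes were lower in U87, 4 at least 2-fold, with a median of -0.19. TKT, transketolase, averaged 6898 ± 65.7 in U87 and 26439 ± 934 in U373, and its relative TKTL1 had 1 read over the U87 group and averaged 533 ± 28.6 in U373.

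Mitochondrially encoded mRNAs were slightly more abundant in U87. Of the 13, 12 were higher in U87 and MT-CO1 was lower, with a median of 0.65. MT-ND2, a subunit of respiratory complex I, averaged 122737 ± 1850 in U87 and 60868 ± 1565 in U373, and MT-CO1, of complex IV, averaged 274524 ± 2149 in U87 and 281905 ± 5290 in U373 (adjusted p = 0.0466), a call that was lost without any one library other than U87 replicate 2 or U373 replicate 3. Together they took 5.85%, 6.06% and 5.84% of all scaled reads in U87, against 4.26%, 4.30% and 4.36% in U373. The shares did not overlap; p was 0.1 by exact permutation, two-sided, the smallest that 3 against 3 libraries allow. The 10 highest genes took 7.14% ± 0.0838 of the reads in U87 and 6.59% ± 0.0895 in U373 (SD, n = 3 each, exact permutation p = 0.1).

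Cholesterol synthesis was lower in U87 for most members. Of 24 genes tested, 16 were lower and 6 higher, with a median of -0.33, and all 6 that were at least 2-fold apart were lower. HMGCS1, at the entry of the pathway, had 563, 561 and 620 in U87, against 1442, 1569 and 1459 in U373, with no overlap. Among 17 genes of fatty acid synthesis and desaturation, 9 were higher and 7 lower, with a median of 0.14. FADS2, a desaturase, averaged 213 in U87 and 1965 in U373, and ELOVL2, an elongase of very long chains, was at 0 in U87 and averaged 63.3 in U373. Of 19 genes of lipid binding, storage and oxidation, 10 were lower and 7 higher with a median of -0.25, and 4 had passed the filter through 1 line alone. The fatty acid carriers FABP5 and FABP7 exchanged places: FABP5 had 501, 477 and 506 in U87, against 0, 3.51 and 1.82 in U373.

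Redox and metal genes included large single differences. Of 38 genes of glutathione and NRF2-linked metabolism, 17 were higher and 14 lower with a median of 0.04. HMOX1, haem oxygenase, averaged 4050 ± 80.0 in U87 and 499 ± 30.5 in U373, and AKR1B1, aldose reductase, averaged 50371 ± 2057 in U87 and 10535 ± 462 in U373. GSTM3, a glutathione transferase, had 0.978, 0 and 5.32 in U87, against 1635, 1677 and 1721 in U373. All 5 metallothionein genes tested, of 11 listed, were higher in U87 by at least 2-fold, against 17.5% of all genes, with a median of 2.53. Among the 5, 1 had passed the filter through 1 line alone and so had to differ. MT2A, a metal-binding protein, averaged 13608 ± 433 in U87 and 2276 ± 14.3 in U373. The metallothioneins are near-identical copies whose reads may be divided among them, so their individual values are uncertain. Of 29 purine, pyrimidine and NAD genes, 16 were higher and 12 lower with a median of 0.20, and 3 had passed the filter through 1 line alone. NAMPT, of NAD salvage, averaged 10601 ± 174 in U87 and 2206 ± 44.8 in U373, and QPRT, of NAD synthesis from tryptophan, averaged 607 ± 38.3 in U87 and 1.61 ± 0.979 in U373.

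**Figure D3:**
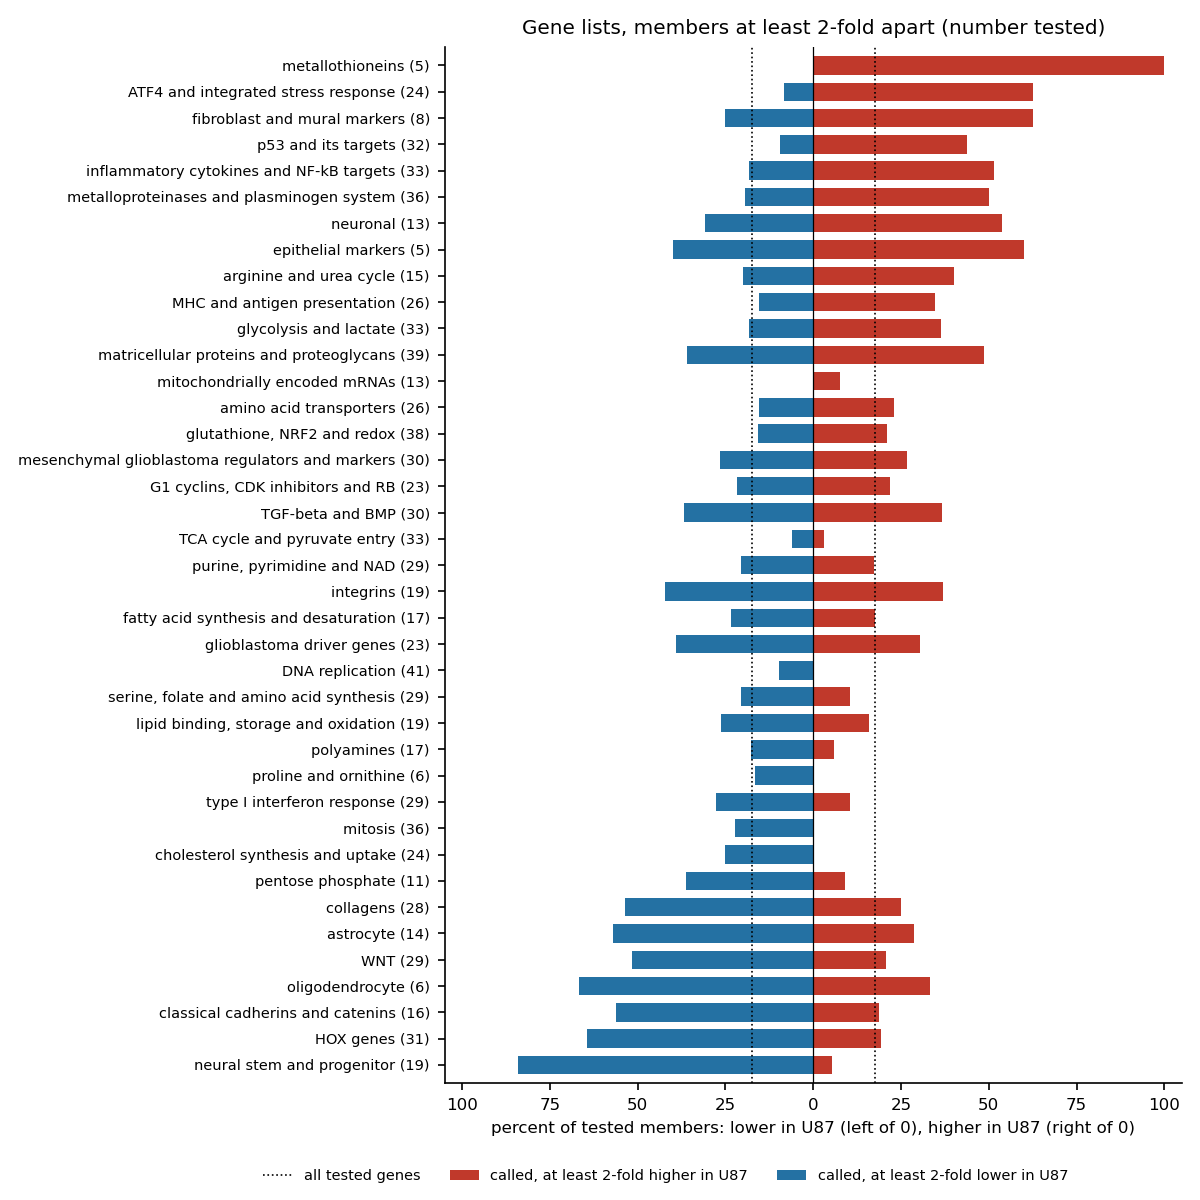
Percent of tested members of each gene list that were called and at least 2-fold higher (red, right of 0) or lower (blue, left of 0) in U87 PBS than in U373 PBS, with the number tested in brackets and dotted lines at the 17.5% of all tested genes in each direction. Metallothioneins extend furthest to the right and neural stem cell genes furthest to the left, and some lists extend on both sides; lists with under 5 tested members are left out.

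Targets of the p53 pathway were mostly higher in U87. CDKN1A, or p21, a brake on cyclin-dependent kinases and a classical p53 target, had 4086, 4112 and 4318 in U87, against 471, 576 and 527 in U373 (log2 difference 2.99 ± 0.06). The lines did not overlap. Of 32 genes in the list, 22 were higher in U87 and 4 lower, 14 and 3 of them at least 2-fold, with a median of 0.85. Over all tested genes, 43.8% were higher in U87, and 17.5% were called and at least 2-fold higher. Among the 32, 2 had passed the filter through 1 line alone and so had to differ, SPATA18 included. MDM2, which degrades p53, averaged 3446 ± 94.0 in U87 and 1176 ± 51.2 in U373, and EDA2R, a receptor that p53 induces, averaged 755 ± 56.7 in U87 and 110 ± 1.19 in U373. SPATA18, a p53 target in mitochondrial quality control, averaged 443 ± 44.5 in U87 and was at 0 in U373. The kinase PLK2 was among the 4 lower, at 794 ± 54.4 in U87 against 7258 ± 259 in U373.

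Genes of cell division were lower in U87 by small amounts. Of 36 mitosis genes tested, 27 were lower and 5 higher, with a median of -0.51, and the 8 at least 2-fold apart were all lower. MKI67, the proliferation marker Ki-67, had 18456, 18858 and 18604 in U87, against 31026, 30178 and 28636 in U373 (log2 difference -0.68 ± 0.03). NUSAP1, a spindle protein, averaged 2048 ± 75 in U87 and 6066 ± 98.3 in U373, while UBE2C, of the anaphase-promoting complex, averaged 2524 ± 96.8 in U87 and 1795 ± 46.0 in U373. DNA replication was closer, with 19 of 41 genes lower, 12 higher and a median of -0.04. PCNA, the replication clamp, averaged 2158 ± 143 in U87 and 4693 ± 24.8 in U373, and RRM1, a ribonucleotide reductase subunit, averaged 7047 ± 83.5 in U87 and 4226 ± 8.23 in U373. Of 23 genes of G1 control, 12 were lower and 10 higher, with a median of -0.19. CDK6 averaged 682 in U87 and 5139 in U373, and CCND1, cyclin D1, averaged 18800 in U87 and 4834 in U373.

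Of 23 glioblastoma driver genes tested, 13 were lower in U87 and 8 higher, with a median of -0.21, or -0.32 with every gene that had any value above 0. Among the 23, 3 had passed the filter through 1 line alone. EGFR was close, at 6379 ± 74.0 in U87 and 7380 ± 175 in U373. TERT, the telomerase reverse transcriptase, was low in both, with 13.7, 20.9 and 21.3 in U87 and 6.45, 8.19 and 5.45 in U373. MGMT, the repair enzyme that counters alkylating drugs, was under the filter, at 0 in U87 and 1.22 in U373. CDKN2A and CDKN2B, inhibitors of CDK4 and CDK6, were at 0 in every library of both lines.

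Extracellular matrix genes were exchanged on a large scale. Of 28 collagen genes tested, 19 were lower in U87 and 8 higher, 15 and 7 of them at least 2-fold, and 8 had passed the filter through 1 line alone. The median was -1.33, and -0.63 with every gene that had any value above 0. COL1A1, a chain of fibrillar collagen I, had 4602, 4596 and 4433 in U87, against 23.9, 24.6 and 26.4 in U373. COL6A3, of microfibrillar collagen VI, had 48723, 48816 and 48518 in U87, against 413, 405 and 339 in U373. Both were confined to a narrow range within each line and lay far apart between lines. COL4A1 and COL18A1, which encode collagens of basement membranes, were lower in U87: COL4A1 had 1 read over the U87 group and averaged 739 ± 18.9 in U373, and COL18A1 averaged 2.93 ± 0.871 in U87 and 2907 ± 54.1 in U373. COL12A1, which bridges fibrils, averaged 2659 ± 63.4 in U87 and 33186 ± 1315 in U373.

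Of 39 matricellular and proteoglycan genes, 21 were higher in U87 and 18 lower, 19 and 14 of them at least 2-fold, and 10 had passed the filter through 1 line alone. The median was 0.64, and 0.26 with at least 50 in 3 libraries. Fibronectin, FN1, had 79458, 82989 and 81382 in U87, against 9388, 8986 and 8907 in U373. Thrombospondin 1, THBS1, had 216, 204 and 249 in U87, against 107211, 100553 and 101324 in U373. These secreted glycoproteins each dominated a different line. CTGF and CYR61, matricellular targets of the YAP coactivators, averaged 522 ± 29.7 and 529 ± 46.7 in U87, while in U373 CTGF averaged 16371 ± 784 and CYR61 averaged 12581 ± 362. IGFBP5, an insulin-like growth factor carrier, averaged 4.98 ± 2.29 in U87 and 12161 ± 571 in U373. SMOC1, a calcium-binding matrix protein, averaged 1160 ± 42.9 in U87 and was at 0 in U373.

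Proteases and their inhibitors were mostly higher in U87. Of 36 genes of metalloproteinases and the plasminogen system, 23 were higher and 11 lower, 18 and 7 of them at least 2-fold, with a median of 1.06, or 0.65 with every gene that had any value above 0. The filter had been passed through 1 line alone by 5 of the 36. MMP2, a gelatinase, averaged 42045 ± 1025 in U87 and 4717 ± 215 in U373, and MMP3, stromelysin, averaged 6097 ± 394 in U87 and 83.1 ± 16.2 in U373. PLAUR, the urokinase receptor, averaged 3804 ± 136 in U87 and 434 ± 24.4 in U373. SERPINB2, an inhibitor of plasminogen activators, averaged 4550 ± 221 in U87 and was at 0 in U373.

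Adhesion receptors followed the matrix in being exchanged. Of 19 integrin genes tested, 10 were higher in U87 and 8 lower, with a median of 0.17, or 0.31 with every gene that had any value above 0. Among the 19, 3 had passed the filter through 1 line alone. The laminin receptor chains ITGA6 and ITGB4 were low in U87, where ITGB4 had 7.82, 6.37 and 12.8, against 6517, 6559 and 6427 in U373. ITGA6 averaged 23.2 ± 6.69 in U87 and 2691 ± 78.4 in U373. The fibronectin receptor chain ITGA5 was higher in U87, at 18968 ± 345 against 1647 ± 102 in U373. Of 16 cadherin and catenin genes, 11 were lower in U87 and 4 higher, and 6 had passed the filter through 1 line alone. The median was -1.48, but -0.06 with every gene that had any value above 0 and -0.77 with at least 50 in 3 libraries. N-cadherin, CDH2, averaged 1709 ± 36.0 in U87 and 8454 ± 193 in U373, CDH11 averaged 277 ± 22.0 in U87 and 10796 ± 207 in U373, and CDH6 was at 0 in U87 and averaged 617 ± 23.8 in U373. E-cadherin, CDH1, was under the filter, at 0.326 in U87 and 0 in U373.

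MHC class II genes were higher in U87, and several were at 0 in every U373 library. These genes encode the proteins that present extracellular antigens to helper T cells, and the coactivator CIITA switches them on together through a shared promoter module of which the Y box, a CCAAT motif, is a part. Promoters of 7 of 10 class II genes looked up were found in RefSeq (GRCh38.p14, 250 bases before to 50 after the start), and 4 are shown because their genes moved together between the lines. They span chr6:32589799-32590098 for HLA-DRB1, chr6:32666608-32666907 for HLA-DQB1, chr6:32953048-32953347 for HLA-DMA and chr5:150412861-150413160 for CD74, all on the minus strand. Capitals mark ATTGG or CCAAT, the motif searched on either strand.

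HLA-DRB1: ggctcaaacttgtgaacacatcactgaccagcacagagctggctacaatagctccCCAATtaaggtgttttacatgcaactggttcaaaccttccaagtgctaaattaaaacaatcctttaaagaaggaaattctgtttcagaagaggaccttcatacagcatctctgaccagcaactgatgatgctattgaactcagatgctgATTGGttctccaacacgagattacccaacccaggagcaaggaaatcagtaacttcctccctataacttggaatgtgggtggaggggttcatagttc

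HLA-DQB1: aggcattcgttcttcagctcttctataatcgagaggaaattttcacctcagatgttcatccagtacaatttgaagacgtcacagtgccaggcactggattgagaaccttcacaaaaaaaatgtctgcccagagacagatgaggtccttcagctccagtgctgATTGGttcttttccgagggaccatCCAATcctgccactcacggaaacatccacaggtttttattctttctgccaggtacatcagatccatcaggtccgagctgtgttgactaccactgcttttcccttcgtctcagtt

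HLA-DMA: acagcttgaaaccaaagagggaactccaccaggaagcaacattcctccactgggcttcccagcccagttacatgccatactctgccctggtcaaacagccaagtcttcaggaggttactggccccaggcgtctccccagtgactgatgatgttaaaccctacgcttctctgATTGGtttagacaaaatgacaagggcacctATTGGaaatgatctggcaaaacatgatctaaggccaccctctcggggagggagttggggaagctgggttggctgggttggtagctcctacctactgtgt

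CD74: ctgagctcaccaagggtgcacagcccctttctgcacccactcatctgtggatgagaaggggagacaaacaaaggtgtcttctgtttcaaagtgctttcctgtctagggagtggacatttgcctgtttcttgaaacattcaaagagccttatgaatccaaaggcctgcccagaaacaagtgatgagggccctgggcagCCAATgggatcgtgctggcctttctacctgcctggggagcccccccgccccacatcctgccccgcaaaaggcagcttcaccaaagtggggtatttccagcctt

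All 7 matched promoters held the motif, as did 36.2% of the 22114 promoters in the table, so its presence by itself is common. CIITA had 1447, 1516 and 1425 in the U87 libraries, against 1.84, 0 and 0.909 in the U373 libraries. CD74, the invariant chain that accompanies class II molecules, had 4235, 4601 and 4323 in U87 and 0 in all 3 U373 libraries, at least 4445-fold higher in U87. HLA-DRA, the alpha chain of HLA-DR, had 2332, 2466 and 2236 in U87 and 0 in U373. HLA-DRB1 averaged 2136 ± 41.0 and HLA-DQB1 averaged 624 in U87, and both were at 0 in U373. HLA-DMA, which loads peptides onto class II molecules, averaged 458 in U87 and 11.2 in U373. HLA-DRB1 and its neighbour HLA-DRB5 are near-identical and highly variable between people, so the division of reads between them is uncertain. HLA-DRA to HLA-DQB1 formed 5 of the 6 genes of a run of neighbours on chromosome 6 that were all at least 4-fold higher in U87. The 14 leukocyte and microglial markers summed to between 6274 and 6456 in U87 and between 444 and 499 in U373, with 4 of them at 0 in all 6 libraries, and their part in the class II values was not tested.

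The peptide transporter TAP1, which loads class I molecules with peptides from inside the cell, averaged 856 ± 55.4 in U87 and 1819 ± 197 in U373. Its log2 difference was -1.08, and the call was kept without U373 replicate 1 (adjusted p = 1.64e-07). Of 26 antigen presentation genes tested, 13 were higher and 12 lower in U87, with a median of 0.24 that became 0.03 with every gene that had any value above 0. The filter had been passed through 1 line alone by 7 of the 26, and all 9 that were at least 2-fold higher belong to class II, CD74 and CIITA included.

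Inflammatory genes were mostly higher in U87. All 33 tested were called, with 25 higher and 8 lower, 17 and 6 of them at least 2-fold and a median of 1.28, while 12 had passed the filter through 1 line alone. IL1B, the cytokine interleukin 1 beta, had 5725, 6702 and 5253 in U87, against 10.1, 10.5 and 11.8 in U373. CSF3, which drives neutrophil production, had 3208, 4067 and 3088 in U87 and 0 in U373. The inducible prostaglandin enzymes were paired, with PTGS2 at 380, 390 and 423 in U87 and 0 in U373, and PTGES at 1793 ± 65.5 in U87 and 0.913 ± 0.909 in U373. IL6 averaged 216 ± 4.51 in U87 and 49.9 ± 9.57 in U373. CXCL8, a neutrophil attractant, was close in both, at 1680 ± 109 in U87 and 1943 ± 78.4 in U373. Lower in U87 were the adhesion receptor VCAM1, at 1.30 ± 2.26 against 185 ± 24.4 in U373, and the monocyte attractant CCL2, at 253 ± 12.4 against 868 ± 122 in U373. IL1A, IL1B, IL36B, IL36RN and IL1RN, neighbours on chromosome 2, formed a run of genes all at least 4-fold higher in U87.

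Interferon genes showed no common direction, and 1 library weighed on them. Of 29 tested, 6 were higher in U87, 9 lower and 14 without a call, and their median was 0, or -0.51 with every gene that had any value above 0. MX1, an antiviral GTPase, had 49.9, 43.7 and 50 in U87, against 1432, 229 and 205 in U373. IFIT1, which binds viral RNA, had 207, 177 and 171 in U87, against 1680, 447 and 418 in U373. Replicate 1 was far above the other U373 libraries for both, yet every U373 library was above every U87 library. The calls for these genes were not firm while U373 replicate 1 was included. The adjusted p of MX1 was 0.0224 with all 6 libraries, 0.0632 without U87 replicate 2 and 0.0639 without U87 replicate 3. For IFIT1 it was 0.0387 with all 6, and from 0.063 to 0.108 without any one U87 library. Without U373 replicate 1, 15 of the 29 were higher in U87 and 10 lower, with a median of 0.25. The log2 difference without it was -2.16 for MX1, against -3.07 with all 6 libraries, and -1.22 for IFIT1, against -1.87 with all 6. Both calls were kept without U373 replicate 1, with a limma adjusted p of 1.03e-06 for MX1 and 3.38e-06 for IFIT1. OASL, an antiviral protein, was higher in U87 with or without it, at 600, 649 and 598 in U87 against 58.0, 9.36 and 14.5 in U373, a log2 difference of 5.60 without it and 4.86 with all 6.

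Developmental signalling genes differed between lines at both ligands and receptors. Of 29 WNT pathway genes, 19 were lower in U87 and 9 higher, 15 and 6 of them at least 2-fold, with a median of -1.51. Among the 29, 6 had passed the filter through 1 line alone and so had to differ. The ligand WNT7B had 6850, 6979 and 7477 in U87, against 37.8, 21.1 and 18.2 in U373, and WNT5A averaged 8089 ± 111 in U87 and 1608 ± 48.7 in U373. DKK1, a secreted WNT antagonist, had 179, 163 and 163 in U87, against 11524, 11790 and 11738 in U373. These 2 ligands were thus higher in U87 and this antagonist was lower. The co-receptor LRP5 averaged 2.33 in U87 and 1075 in U373. Of 30 TGF-beta and BMP genes, 14 were higher and 14 lower with a median of 0.12, or 0.04 without U373 replicate 1. The filter had been passed through 1 line alone by 7 of the 30. LTBP1, which stores latent TGF-beta in the matrix, averaged 10941 ± 292 in U87 and 540 ± 6.42 in U373. BMP4 was at 0 in U87 and averaged 40 ± 15.9 in U373, where the BMP antagonist GREM1 was at 0.

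HOX genes, which set position along the body axis, were mostly lower in U87. Of 31 tested, 21 were lower and 7 higher, 20 and 6 of them at least 2-fold, with a median of -1.77 (-1.09 with every gene that had any value above 0), and 11 had passed the filter through 1 line alone. HOXC13 was at 0 in U87 and had 516, 484 and 557 in U373. HOXD10 averaged 35.3 ± 10.5 in U87 and 823 ± 30.4 in U373. Genes near the other end of a cluster could be higher in U87, such as HOXB2 at 470, 454 and 517 against 7.37, 4.68 and 1.82 in U373. On chromosome 7, HOXA6, HOXA7, HOXA11 and HOXA13 formed a run of genes all at least 4-fold lower in U87, and HOXA4 averaged 85.0 in U87 and 1.17 in U373.

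Genes without any read in 1 line were placed on the genome with GENCODE v29 (GRCh38). In U87, 95 genes were at 0 in all 3 libraries while every U373 library had at least 100. In U373, 96 genes were at 0 while every U87 library had at least 100. Zinc finger genes were taken by symbol, as ZNF or ZFP followed by a number, ZSCAN or ZKSCAN. Of the 95 at 0 in U87, 29 were zinc finger genes, 25 of them on chromosome 19. Of the 96 at 0 in U373, 2 were zinc finger genes. Among all 13231 tested genes, 234 were zinc finger genes on chromosome 19 and 260 were zinc finger genes on other chromosomes. The set at 0 in U87 thus held a larger share of zinc finger genes than the tested genes did. The set at 0 in U373, of similar length, did not. These shares were not tested.

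On chromosome 9, 5 neighbouring tested genes were at 0 in every U87 library. They ran from MLLT3 to DMRTA1, chr9:20341665-22455740, and included FOCAD, KLHL9 and MTAP. MLLT3, a subunit of a transcription elongation complex, had 271, 279 and 311 in U373. FOCAD, a focal adhesion protein, had 1660, 1594 and 1512 in U373, and KLHL9, a ubiquitin ligase adaptor, had 1286, 1284 and 1282 there. DMRTA1 averaged 146 ± 9.15 in U373. CDKN2A and CDKN2B lie between MTAP and DMRTA1 and were at 0 in U373 too, and the interferon alpha genes of the region were at 0 in both lines. Tested genes on either side were present in U87: SLC24A2 had 441, 487 and 491 in U87 and 0 in all 3 U373 libraries, and ELAVL2 averaged 39.1 in U87 and 4.68 in U373. DNA copy number was not measured in these data.

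**Figure D4:**
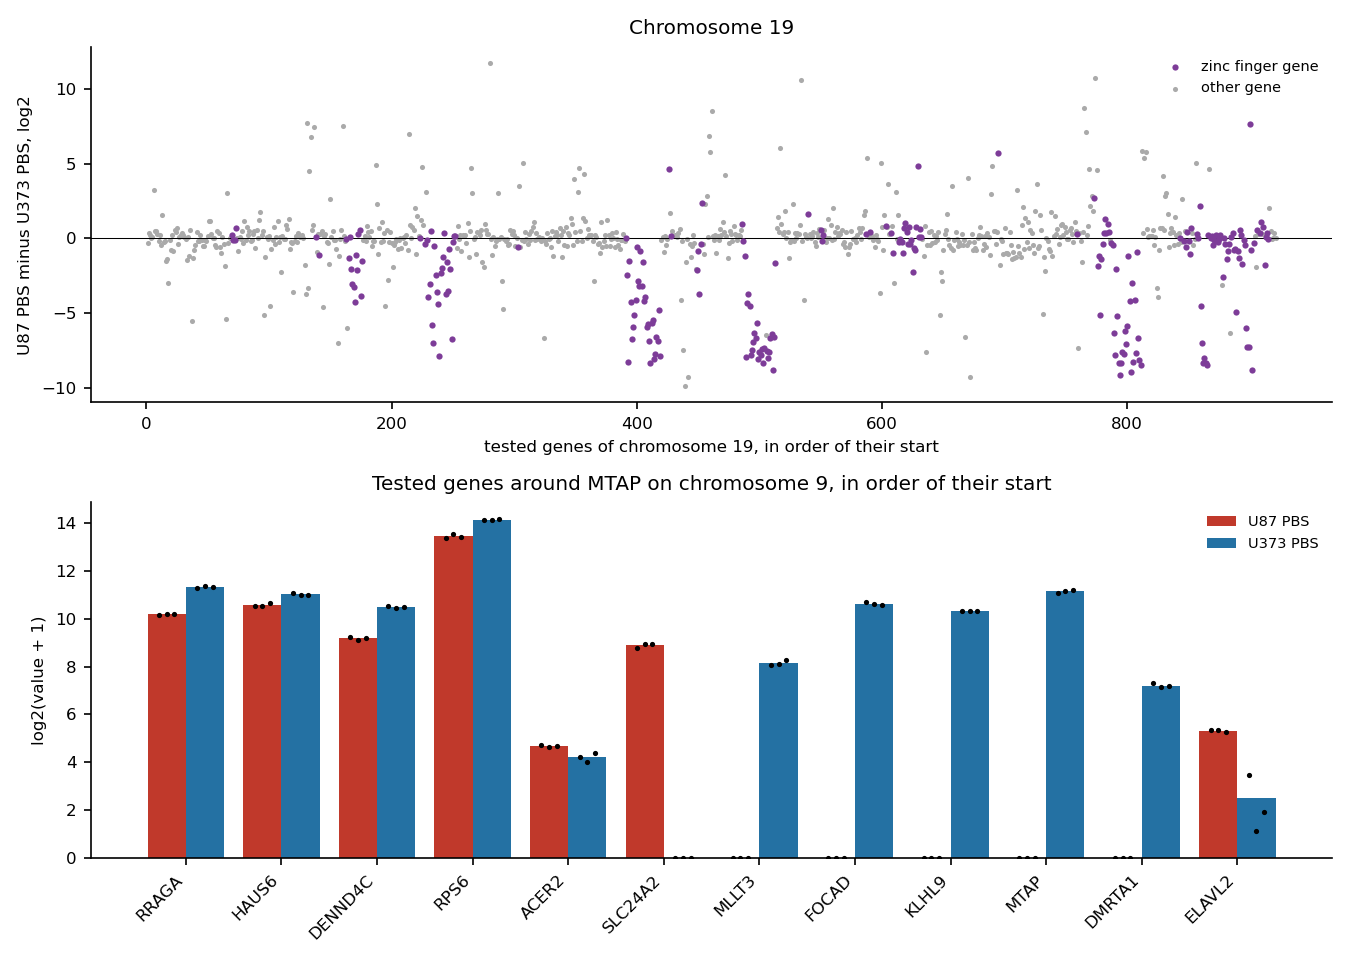
Top, difference between U87 PBS and U373 PBS (y axis, log2) for tested genes of chromosome 19 in order along the chromosome (x axis), with zinc finger genes in purple and other genes in grey. Bottom, mean level (bars, log2(value + 1)) and each library (dots) in U87 PBS (red) and U373 PBS (blue) for the tested genes around MTAP on chromosome 9; the purple points drop below 0 in several blocks, and MLLT3 to DMRTA1 are at 0 in U87.

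Many zinc finger genes of chromosome 19 belong to a family of DNA-binding repressors that lie in clusters and hold transposable elements silent. The set here was taken by symbol, so not every gene in it need belong to that family. It held joined entries such as ZNF559-ZNF177 and left out HKR1, which lies in the longest run. Zinc finger genes of chromosome 19 were lower in U87 in blocks. Of 234 tested there, 152 were lower in U87 and 46 higher, and 123, or 52.6%, were at least 2-fold lower, against 17.5% of all genes. The median was -1.20. Through U373 alone 73 of the 234 had passed the filter, and these had to be lower in U87, while 4 had passed through U87 alone. Of 260 zinc finger genes on other chromosomes, 60 (23.1%) were at least 2-fold lower, with a median of -0.25, and 15 had passed through U373 alone and 7 through U87 alone. Neighbouring genes often moved together. A run of 24 neighbours from ZFP82 to ZNF607, chr19:36383120-37719790, was at least 4-fold lower in U87 throughout, with a median of -7.40 and 14 members at 0 in U87. Another run held 14 genes from ZNF708 to ZNF254, chr19:21291160-24129961, with 6 at 0 in U87. A run of 12 ran from ZNF610 to ZNF816, chr19:52336245-52962911. In the longest run, ZNF569 was at 0 in U87 and had 230, 303 and 246 in U373, and ZNF420 was at 0 in U87 and had 233, 222 and 203 in U373. Elsewhere on the chromosome ZNF667 was at 0 in U87 and had 335, 293 and 329 in U373. ZNF91, a repressor of transposons, had 0, 1.82 and 4.25 in U87, against 479, 564 and 525 in U373. Members of this family resemble each other, so reads may be shared among them and single values are uncertain. In all, 27 runs were found of at least 4 neighbouring tested genes that were all called and at least 4-fold apart in the same direction. Genes that were not tested were passed over, and the number of runs to be expected was not estimated. Other runs held SERPINB7, SERPINB2, HMSD, SERPINB8 and CDH7 on chromosome 18, all higher in U87, and NCAM1, TTC12, DRD2 and TMPRSS5 on chromosome 11, all lower in U87. DRD2, a dopamine receptor, was at 0 in U87 and averaged 890 in U373.

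Whole chromosomes also differed in their median, relative to the median of all tested genes. Genes of chromosome 22 stood 0.57 above it in U87 (294 genes), those of chromosome 12 stood 0.53 above (694 genes), and those of chromosomes 13 and 18 each stood 0.46 above (233 and 193 genes). Chromosome 6 stood 0.52 below it (median -0.52, 673 genes), and 31.8% of its genes were called and at least 2-fold lower in U87, although its class II genes were higher. The SD of these medians over the U87 libraries was at most 0.0347 for any chromosome. No test was made of them.

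The same comparison could be made in cells given BCT-100, which share no library with the PBS groups. It was not fully separate from the PBS comparison. The genes were the 13231 that passed the filter in the PBS libraries, and the error was estimated over all 12 libraries. Of the 2318 genes at least 2-fold higher in U87 with PBS, 1746 (75.3%) were also at least 2-fold higher with BCT-100, which is 75% of the 2329 found there. Of the 2313 lower genes, 1743 (75.4%) were also lower, 75% of the 2325 found with BCT-100. Most large differences between the lines were therefore present under both conditions. The difference itself changed in size for 7632 genes, or 57.7%, by the interaction of line and treatment over all 12 libraries (adjusted p under 0.05), with 3487 more positive and 4145 more negative with BCT-100. For 988 of the 13231 genes the difference was called under both conditions but in opposite directions. In 27 of these it was at least 2-fold under both. CLDN1, a tight junction protein, averaged 947 in U87 and 242 in U373 with BCT-100, and 9.88 in U87 and 40 in U373 with PBS. CCL2 averaged 1413 in U87 and 142 in U373 with BCT-100, and 253 in U87 and 868 in U373 with PBS.

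Among the 23 tested genes reported of a panel chosen around arginine and glioma biology, 20 had a changed difference, against 57.7% of all tested genes. ASS1 averaged 4509 ± 104 in U87 and 666 ± 31.9 in U373 with BCT-100, so that its log2 difference was 2.76, against 6.27 with PBS. The interaction was -3.51 ± 0.08 (SE, adjusted p = 1.03e-17). SLC7A1 averaged 6857 ± 171 in U87 and 12588 ± 468 in U373 with BCT-100, a log2 difference of -0.88, against 0.94 with PBS. The line with the higher SLC7A1 was thus U373 with BCT-100 and U87 with PBS. IL6 averaged 20424 ± 695 in U87 and 172 ± 33.0 in U373 with BCT-100, a log2 difference of 6.91, against 2.11 with PBS. ASNS averaged 18228 ± 228 in U87 and 15439 ± 610 in U373 with BCT-100, a log2 difference of 0.24, against 1.14 with PBS.

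**Figure D5:**
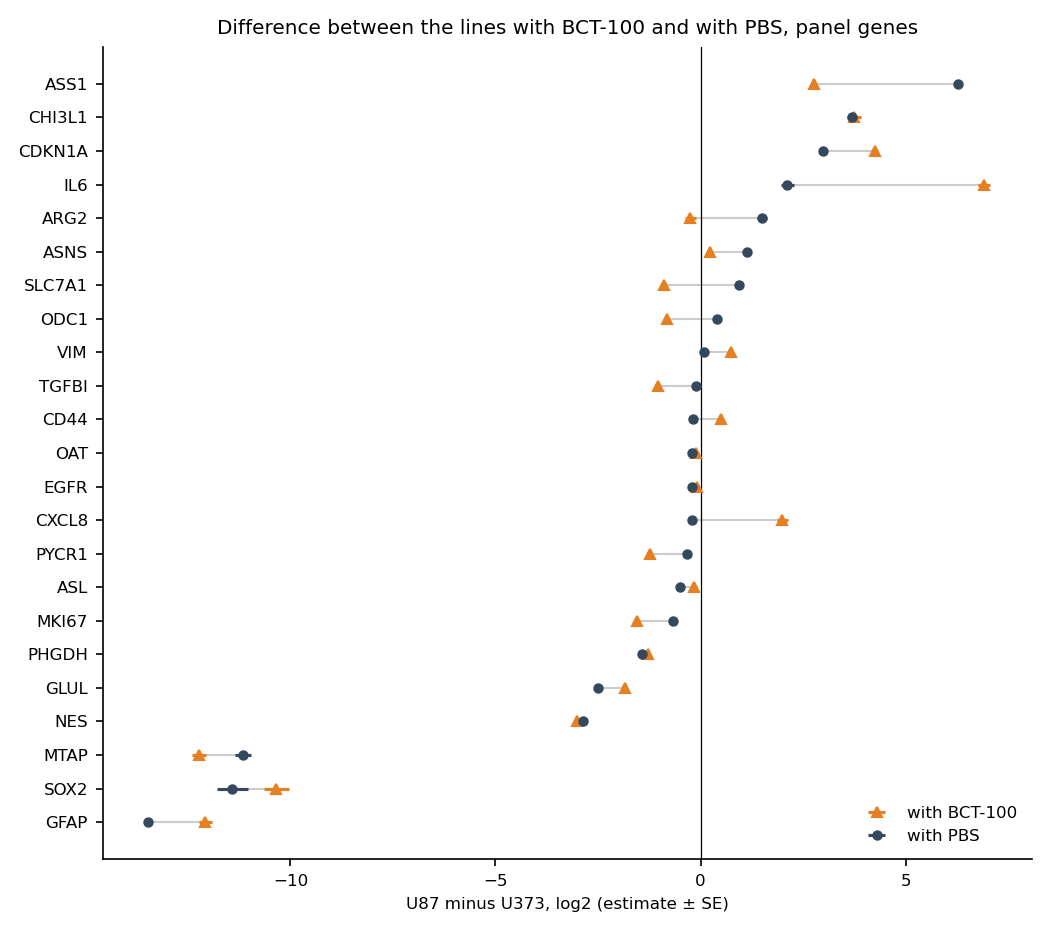
Difference between U87 and U373 (x axis, log2, estimate ± SE) with BCT-100 (orange triangles) and with PBS (dark circles) for 23 tested panel genes, ordered by the difference with PBS. ASS1 lies at 2.76 with BCT-100 and at 6.27 with PBS, SLC7A1, ODC1 and ARG2 are among the genes on opposite sides of 0, and GFAP, SOX2 and MTAP stay below -10 under both conditions.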

How the data were processed

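RNA-seq was made from 12 libraries, of which the 3 U87 PBS and 3 U373 PBS libraries were compared. Reads were processed with STAR and RSEM against hg38, per the submitters' processing notes; other settings are not given in the sources used here. The deposited values are a signal: read counts that the authors divided by 1 factor per library. Between 85.5% and 86.9% of values were whole multiples of the value of 1 read, within 0.001, which gave the depths but not counts fit for a count model. Of 19844 entries, 20 exact repeats were dropped, and 42 that share a symbol were not named. Of the rest, 19152 symbols matched GENCODE v29 directly or through a RefSeq synonym.

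Genes with at least 10 in 3 of the 6 libraries were tested on log2(value + 1) with limma 3.58.1 (trended, robust prior) in R 4.3.3, with Benjamini-Hochberg adjustment over all 13231 at 0.05, and the fit was tested on simulated data. Fold changes of low genes are understated on this scale. A gene at 0 in a line was taken as at most 3 reads in the group's sum, and ratios with 1 to 3 reads have an exact 95% interval. Named genes were a panel of 30 genes, the 12 largest and 12 smallest called differences with a mean of at least 200 in the higher line and no overlap, list members with large or well-known differences, genes at 0 in 1 line with at least 100 in every library of the other, and genes in runs of at least 4 neighbours. CLDN1 and CCL2 with BCT-100, HLA-DQB1 and the interferon values per library were picked after their values were seen. The panel and all lists were chosen with earlier results of these data known. Libraries with the same number were not paired: their deviations correlated at -0.042, -0.056 and -0.009. Results for a few genes are not reported here.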

Additional observations from a re-analysis of the deposited data

Results flagged for a closer look

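For 20 of the 23 tested panel genes reported, the difference between U87 and U373 itself changed with treatment, by the interaction of line and treatment (limma over all 12 libraries, Benjamini-Hochberg adjusted p from 1.03e-17 to 0.0346). Over all 13231 tested genes, 57.7% had a changed difference by the same threshold, and the panel was chosen with earlier results of these data known. The values below are the log2 difference of U87 minus U373 with BCT-100 minus that with PBS.

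Among genes of arginine and amino acid use, the change was -3.51 for ASS1, 0.36 for ASL, -1.75 for ARG2, -1.82 for SLC7A1, -1.23 for ODC1, -0.92 for PYCR1, -0.90 for ASNS, 0.66 for GLUL and 0.16 for PHGDH. ARG2 averaged 170 ± 11.9 in U87 and 203 ± 25.6 in U373 with BCT-100, a log2 difference of -0.25, against 298 in U87 and 105 in U373 with PBS. The interaction says that the difference changed, and no call is given for ARG2 between the lines with BCT-100. PYCR1 averaged 1559 ± 21.3 in U87 and 3697 ± 130 in U373 with BCT-100 (SD, n = 3 each).

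Among genes of cell division and its arrest, the change was 1.26 for CDKN1A and -0.87 for MKI67. MKI67 averaged 1645 ± 68.7 in U87 and 4832 ± 112 in U373 with BCT-100, against 18639 in U87 and 29947 in U373 with PBS.

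Among identity, matrix and cytokine genes, the change was 0.66 for VIM, -0.14 for NES, 0.68 for CD44, 4.80 for IL6, 2.20 for CXCL8 and -0.94 for TGFBI. CXCL8 averaged 97619 ± 6719 in U87 and 24911 ± 5028 in U373 with BCT-100, against 1680 in U87 and 1943 in U373 with PBS. The change was -1.08 for MTAP, 1.41 for GFAP and 1.08 for SOX2, whose values at or near 0 in U87 make the figure depend on the amount added before the logarithm. The calls for NES and SOX2 were each lost when any of several single libraries was left out, with values of -0.14 to -0.10 for NES and 0.82 to 1.10 for SOX2 in those fits.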

How the results depend on the processing

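Of 193 named genes, all called, 187 kept their direction and their call under every alternative that tested them, and none changed direction. Of the 193, 183 passed the filter of at least 50 in 3 libraries; IL1RN, OLIG2, HOXA6, HOXA7, HOXA11, HOXA13, TERT, BMP4, ELAVL2 and CLDN1 did not and have no value there. The 6 that lost a call under some alternative were CXCL8, IFIT1, MT-CO1, MX1, TGFBI and VIM. Leaving out 1 library gave 5641 to 5733 genes higher in U87 and 5245 to 5324 lower. The replicate block, which could be fitted although same-numbered libraries did not vary together, gave 5753 higher and 5355 lower, and of the named genes it ended the call of MT-CO1 alone. Requiring 4-fold in place of 2-fold left 1205 higher and 1232 lower, and limma's treat at 2-fold left 1845 and 1806.

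Medians of gene lists moved most with the filter on low values, by construction with fewer or more genes tested. With any value above 0 they were 0.41 for arginine and urea cycle, 0.23 for amino acid transporters, 0.23 for serine, folate and amino acid synthesis, 0.46 for glycolysis and lactate, -0.29 for cholesterol synthesis and uptake, 2.32 for metallothioneins, -0.24 for G1 cyclins, CDK inhibitors and RB, -0.32 for glioblastoma driver genes, -0.75 for astrocyte, -2.78 for neural stem and progenitor, -0.89 for oligodendrocyte, 0.15 for neuronal, -0.63 for collagens, 0.95 for matricellular proteins and proteoglycans, 0.65 for metalloproteinases and plasminogen system, 0.31 for integrins, -0.06 for classical cadherins and catenins, -1.09 for HOX genes, 1.14 for inflammatory cytokines and NF-kB targets, -0.51 for type I interferon response, 0.03 for MHC and antigen presentation and -1.18 for WNT. With at least 50 in 3 libraries they were -0.07 for amino acid transporters, 0.68 for glycolysis and lactate, 0.24 for TCA cycle and pyruvate entry, 2.32 for metallothioneins, -0.28 for glioblastoma driver genes, -1.45 for astrocyte, 1.41 for neuronal, 0.15 for mesenchymal glioblastoma regulators and markers, -0.96 for collagens, 0.26 for matricellular proteins and proteoglycans, 1.13 for metalloproteinases and plasminogen system, -0.77 for classical cadherins and catenins, 0.99 for inflammatory cytokines and NF-kB targets and -2.00 for WNT, so that the sign for amino acid transporters changed. With scaling by the median of ratios they were 1.12 for ATF4 and integrated stress response, -0.36 for cholesterol synthesis and uptake, 0.17 for purine, pyrimidine and NAD, -0.55 for mitosis, -0.08 for DNA replication, 0.82 for p53 and its targets, -0.24 for glioblastoma driver genes, 0.03 for mesenchymal glioblastoma regulators and markers, 1.03 for metalloproteinases and plasminogen system and 0.14 for integrins. With equal totals they were -0.35 for cholesterol synthesis and uptake, 0.18 for purine, pyrimidine and NAD, -0.06 for DNA replication, -0.23 for glioblastoma driver genes and 0.04 for mesenchymal glioblastoma regulators and markers. With 5 added they were 0.96 for metalloproteinases and plasminogen system and -1.57 for HOX genes. Without 1 library, medians ran from 1.12 to 1.18 for ATF4 and integrated stress response, from -0.24 to -0.15 for pentose phosphate, from 0.56 to 0.72 for mitochondrially encoded mRNAs, from -0.34 to -0.31 for cholesterol synthesis and uptake, from 0.17 to 0.22 for purine, pyrimidine and NAD, from -0.06 to -0.03 for DNA replication, from -0.22 to -0.16 for G1 cyclins, CDK inhibitors and RB, from 0.82 to 0.87 for p53 and its targets, from -0.25 to -0.20 for glioblastoma driver genes, from -3.27 to -2.78 for oligodendrocyte, from 1.04 to 1.31 for neuronal, from 0.04 to 0.09 for mesenchymal glioblastoma regulators and markers, from 1.24 to 1.34 for inflammatory cytokines and NF-kB targets, from -0.17 to 0.25 for type I interferon response and from -1.57 to -1.45 for WNT. Counts of members at least 2-fold apart shifted slightly in many lists when 1 library was left out. The lower count then ran from 5 to 7 for metalloproteinases and plasminogen system and from 3 to 5 for MHC and antigen presentation. The lower count of TCA genes was 1 and the higher count of neural stem cell genes was 0 with at least 50 in 3 libraries, and the higher count of cadherins was 5 with any value above 0. The higher count of mitochondrial mRNAs was 0 under both scalings and 0 to 1 without 1 library. That of interferon genes ran from 3 to 7, with 7 without U373 replicate 1, and their lower count ran from 6 to 10. Chromosome medians were -0.56 for chromosome 6 and 0.47 for chromosome 18 with at least 50 in 3 libraries, and without 1 library ran from 0.42 to 0.46 for chromosome 13, from 0.45 to 0.49 for 18 and from 0.55 to 0.59 for 22. The uncalled interaction of CHI3L1 ran from -0.12 to 0.24. The cause of these changes was not tested.

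Depth limits genes near 0: a count of 0 over a line allows up to 3 reads. Small called differences describe these 3 libraries a line. No genotype or copy number was measured.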
